A study of Mus musculus with 16 samples.

Results

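A list of 50 genes of the cell cycle and of mitosis was followed through the left ventricle of mice of 4 genotypes. The genes were chosen by name: 11 act in DNA replication and nucleotide supply, 26 in mitosis, 8 in the passage through G1, 3 encode inhibitors of cyclin-dependent kinases (CDKs), and the last 2 are Stmn1, whose product destabilizes microtubules, and the histone variant gene H2az1, listed under its older name H2afz. Of the 50 genes, 45 had a probe among the 16593 genes of the probe table, 44 by symbol and 1 by synonym. Testing required a probe whose detection p-value was under 0.01 on 4 or more of the 16 arrays of any genotype, which held for 23 members and for 6902 genes in all. The other 5 members, Mki67, Cenpf, Ccnb1, Aurkb and Cdk4, were not analysed here.

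The tissue came from male animals, 4 hearts of each genotype, and each heart was read on its own Illumina array in a single colour. Control animals were littermates without a named transgene. TRAF2LC mice (Myh6-TRAF2LC) overexpress TRAF2, an adapter of TNF receptors, from a Myh6 transgene. IkBaDN mice (Myh6-IκBαΔN) carry a mutated IκBα, the protein that holds NF-κB dimers in the cytoplasm, likewise under Myh6, and double transgenic mice carry both. The series asks about TRAF2, protection of the heart and non-canonical NF-κB signalling. The Myh6 promoter drives expression in cardiomyocytes, so the other cells of the ventricle carry either transgene without using it. Age, strain and the number of founder lines are unstated in the labels.

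Cells enter the cycle when D-type cyclins with their kinases inactivate RB proteins and release E2F factors, which turn on the genes of DNA replication. Mitotic genes follow later and are kept silent in resting cells by the DREAM complex, which binds a short promoter element called the CHR, often near CCAAT boxes. Cardiomyocytes of the adult mouse have largely left the cycle, so cycle transcripts in a ventricle can come from endothelial cells, fibroblasts and immune cells, and from cardiomyocytes that copy DNA or divide nuclei without dividing. In RNA of a whole ventricle, a change in the number of cells of a type and a change in RNA per cell cannot be told apart.

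The promoters of the members differed by role, and 4 of them show the contrast. RefSeq (GRCm38.p6) gave windows of 300 bases, from 250 before to 50 after the transcription start, for 37 of the 45 members in the probe table. Prc1 and Kif22 are shown as the mitotic members that were higher in TRAF2LC hearts, and Cenpa as the one that was lower in double transgenic hearts. Mcm6 is shown for the replication genes and was picked, after the sequences were seen, for holding the most matches to E2F motifs among tested replication members. Capitals mark every match, on either strand, to CCAAT, which reads ATTGG on the opposite strand, and to the CHR core TTTGAA, which there reads TTCAAA. They also mark the E2F form TTCGCG, on the opposite strand CGCGAA, and the longer E2F forms TTGGCGC as well as TTCCCGC. The windows are chr7:80294201-80294500 on the plus strand for Prc1, chr7:127042371-127042670 on the minus strand for Kif22, chr5:30666636-30666935 on the plus strand for Cenpa and chr1:128359656-128359955 on the minus strand for Mcm6.
Prc1: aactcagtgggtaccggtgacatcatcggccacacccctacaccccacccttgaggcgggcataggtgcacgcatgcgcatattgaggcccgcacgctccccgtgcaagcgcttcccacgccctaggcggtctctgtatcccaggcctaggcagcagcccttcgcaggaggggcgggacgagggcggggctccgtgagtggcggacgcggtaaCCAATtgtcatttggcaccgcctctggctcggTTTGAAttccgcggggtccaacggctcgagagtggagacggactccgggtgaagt
Kif22: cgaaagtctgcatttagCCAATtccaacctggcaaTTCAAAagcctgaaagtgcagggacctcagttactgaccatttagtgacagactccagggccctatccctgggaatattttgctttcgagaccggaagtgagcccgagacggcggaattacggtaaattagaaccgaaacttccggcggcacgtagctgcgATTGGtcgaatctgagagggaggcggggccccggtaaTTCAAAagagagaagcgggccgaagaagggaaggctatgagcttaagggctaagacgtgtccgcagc
Cenpa: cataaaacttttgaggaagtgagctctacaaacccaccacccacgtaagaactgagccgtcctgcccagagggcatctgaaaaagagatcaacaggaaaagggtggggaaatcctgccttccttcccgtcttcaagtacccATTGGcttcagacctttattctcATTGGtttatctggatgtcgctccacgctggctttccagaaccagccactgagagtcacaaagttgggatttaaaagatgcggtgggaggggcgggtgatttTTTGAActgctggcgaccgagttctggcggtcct
Mcm6: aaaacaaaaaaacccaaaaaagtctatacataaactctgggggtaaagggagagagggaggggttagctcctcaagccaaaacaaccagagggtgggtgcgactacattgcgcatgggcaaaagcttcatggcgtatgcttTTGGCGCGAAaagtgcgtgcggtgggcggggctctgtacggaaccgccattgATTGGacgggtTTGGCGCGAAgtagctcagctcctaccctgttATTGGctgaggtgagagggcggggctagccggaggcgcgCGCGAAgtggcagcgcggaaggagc
In Prc1 the CCAAT match lies 37 and the CHR core 5 bases before the start. Kif22 has 2 matches of each, with its nearer CHR core 17 bases before the start, and Cenpa has its CHR core 17 bases after it. Mcm6 holds 5 matches of E2F forms and no CHR core, and in both TTGGCGC matches the last letters also belong to a TTCGCG match, 6 shared letters in all.

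The CHR core was found in 13 of 19 windows of mitotic members (68.4%) and in 1 of 10 of replication members, against 18.1% of the 27025 promoters of the table. An E2F form was found in 1 of 19 mitotic windows (5.26%) and in 6 of 10 replication windows (60%), against 10.4% of all promoters. CCAAT occurred in 84.2% of the mitotic and 80% of the replication windows, against 37.9% of all. For each gene only its first listed window was searched. Birc5 and E2f1 had no match to any of the searched letters there. Other transcription starts of these genes were not searched, so this says nothing of the factors that act on them. A match describes the letters of a window and is not evidence of binding in these hearts.

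Detection came first. The rule for testing held for 23 of the 45 members with a probe and for 6902 of the 16593 genes in the probe table. Members thus passed it no less often than genes at large. Of the 45 members, 20 were detected on 0 of 16 arrays. These include 13 mitotic genes, among them Top2a, which untangles chromosomes, the B-type cyclin gene Ccnb2, the A-type cyclin gene Ccna2, the mitotic kinase gene Plk1, the checkpoint genes Bub1 and Bub1b and the motor genes Kif11, Kif20a and Kif23. They also include 4 replication genes: Pcna, the sliding clamp of DNA polymerases, the helicase subunits Mcm3 and Mcm7, and Rrm2, the small subunit of ribonucleotide reductase. Ccne1, Cdk6 and Stmn1 make up the rest. Cdk1, the kinase that drives entry into mitosis, was detected on 2 arrays, both IkBaDN, and Cdc25b, a phosphatase that activates it, on 1 IkBaDN and 1 double transgenic array. A detection limit of 5.40 to 5.81 on the log2 scale, depending on the array, bounds what can be said of all these genes.

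**Figure D1:**
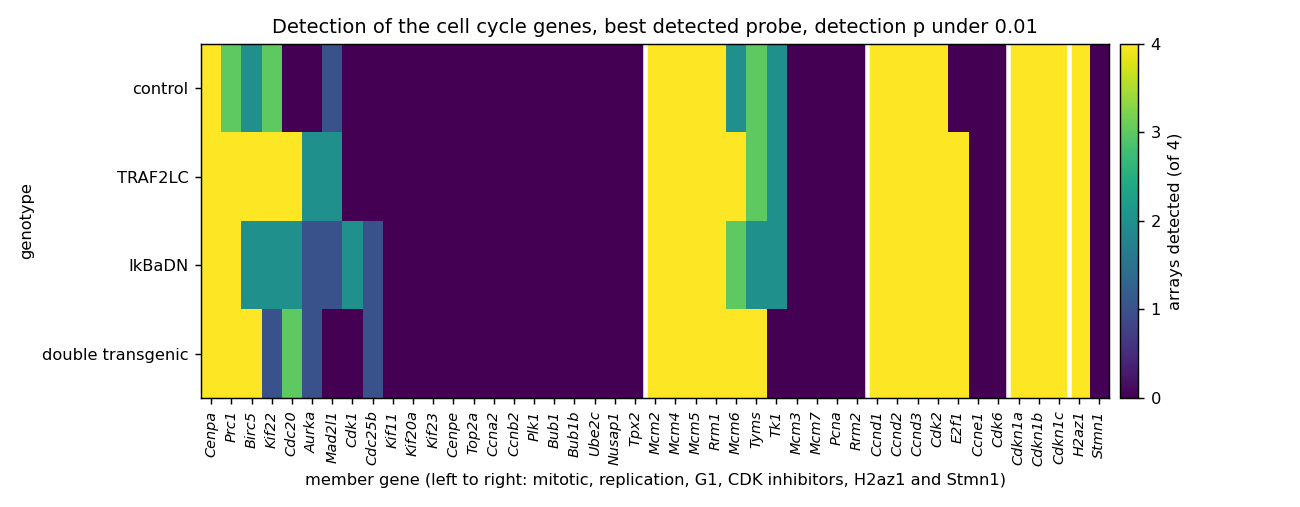
Number of arrays, out of 4 per genotype, on which each of the 45 members with a probe was detected, at its best detected probe. Columns are genes, ordered by role, and rows are genotypes. Columns dark in all 4 genotypes are the members detected on 0 arrays, and E2f1 turns from 0 of 4 control arrays to 4 of 4 in each transgenic genotype.

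The 23 tested members were 7 mitotic, 7 replication, 5 G1 and 3 inhibitor genes and H2az1. E2f1, the transcription factor gene, was detected on 0 of 4 control arrays and on all 12 transgenic arrays. Cdc20, the activator of the anaphase-promoting complex, was detected on 0 control, 4 TRAF2LC, 2 IkBaDN and 3 double transgenic arrays. Kif22, a chromosome-bound kinesin, was detected on 3, 4, 2 and 1 arrays in the same order, and Birc5, the survivin gene, on 2, 4, 2 and 4. Aurka, a spindle kinase gene, was detected on 4 arrays in all, 2 of them TRAF2LC, and so was Mad2l1, a spindle checkpoint gene. Genes like Cdc20 and Aurka passed the detection rule partly through the genotype in which they read highest, so counts and medians over the tested mitotic members are given as descriptions.

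Across the whole series the mean signal per array ran from 129 to 375, and 7948 to 9397 of 25697 probes were detected. IkBaDN replicates 2 and 3 had the lowest signal, 129 and 204, and the highest detection limits. TRAF2LC replicate 4 had the most probes detected and the lowest weight, 0.38, in a fit that estimates the quality of each array. All 9 cardiomyocyte markers in the table were tested, 8 of them detected on 16 arrays and Ryr2 on 6. Traf2 read 6.11 in TRAF2LC against 5.85 in control hearts (adjusted p = 0.558), by a probe whose place relative to the transgene is unstated, so it checks no label.

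Among mitotic members Prc1 showed the largest difference. It encodes a protein that bundles the microtubules of the central spindle in anaphase. Its log2 normalized intensity was 5.50, 6.06, 5.91 and 6.19 on the control arrays and 6.74, 7.13, 7.26 and 7.27 on the TRAF2LC arrays. On the IkBaDN arrays it was 7.11, 6.61, 6.28 and 6.33, and on the double transgenic arrays 6.70, 6.17, 6.35 and 6.42. All TRAF2LC values lay above all control values, IkBaDN values also lay above the controls, and the double transgenic values overlapped both the controls and the IkBaDN hearts. Against control, Prc1 rose 2.28-fold in TRAF2LC hearts (log2 difference 1.19 ± 0.19, SE, n = 4 per genotype, adjusted p = 0.00482). Neither the IkBaDN difference (0.67 ± 0.19, adjusted p = 0.208) nor the double transgenic one (0.50 ± 0.19, adjusted p = 0.35) passed, nor did that of double transgenic against TRAF2LC hearts (-0.69 ± 0.19, adjusted p = 0.0641).

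Kif22 was highest in TRAF2LC hearts. Control arrays read 6.08, 5.96, 5.46 and 5.61, and TRAF2LC arrays 6.26, 6.65, 6.33 and 6.68. The IkBaDN values were 5.68, 5.47, 5.10 and 5.67 and the double transgenic values 5.74, 5.50, 5.57 and 5.38. No TRAF2LC value overlapped a value of any other genotype, while the other genotypes overlapped each other. Kif22 rose by 0.70 ± 0.16 on the log2 scale in TRAF2LC against control (adjusted p = 0.0483). It stood 1.0 ± 0.16 higher in TRAF2LC than in IkBaDN hearts (adjusted p = 0.0015), and in double transgenic hearts it fell by 0.93 ± 0.16 against TRAF2LC (-0.93, adjusted p = 0.00313). Without TRAF2LC replicate 4 the difference from control was 0.63 and no longer passed (adjusted p = 0.188), while the differences from IkBaDN (0.92, adjusted p = 0.00651) and from double transgenic hearts (-0.85, adjusted p = 0.013) did. The rise over control passed in 3 of 16 fits that each left out 1 array, and both other differences in all 16.

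Cenpa moved the other way. It encodes the histone H3 variant that marks centromeres, and its probe was detected on all 16 arrays. Whether that probe also reads other transcripts was not checked. The control arrays read 11.42, 11.44, 11.20 and 11.19 and the TRAF2LC arrays 11.36, 10.87, 10.98 and 10.68. The IkBaDN arrays read 10.96, 10.61, 10.64 and 10.96, and the double transgenic arrays 10.39, 10.49, 10.50 and 10.37. All double transgenic values lay below all values of the other 3 genotypes, and all IkBaDN values lay below the controls. Cenpa fell 1.84-fold in double transgenic against control hearts (log2 difference -0.88 ± 0.14, adjusted p = 0.00336) and 1.45-fold against TRAF2LC hearts (-0.54 ± 0.14, adjusted p = 0.0433). The latter passed in 3 of 16 fits that each left out 1 array, and without TRAF2LC replicate 1 it was -0.41 (adjusted p = 0.114). The smooth muscle gene Acta2 moved the opposite way, rising by 1.01 ± 0.19 in double transgenic against control hearts (adjusted p = 0.0129). Of 9 tested smooth muscle and pericyte markers, 4 were higher there and 5 lower, with a median log2 difference of -0.02. Their summed normalized intensity was 22103 to 25103 against 12353 to 16063 in control hearts. Acta2, at a mean log2 level of 14.18 against 13.17, makes up most of that sum. The part of these markers in the result was not tested. Against control, Cenpa differed by -0.52 ± 0.14 (adjusted p = 0.155) in IkBaDN and by -0.34 ± 0.14 (adjusted p = 0.37) in TRAF2LC hearts, neither past the threshold.

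Birc5 is a subunit of the chromosomal passenger complex and an inhibitor of apoptosis. Its brightest probe read 5.45, 5.74, 6.09 and 5.52 in control and 6.38, 6.38, 6.51 and 6.66 in TRAF2LC hearts, without overlap. It read 6.33, 5.46, 5.32 and 5.86 in IkBaDN hearts, the widest spread of any genotype, and 6.09, 6.04, 5.71 and 5.77 in double transgenic hearts. The probe stood higher in TRAF2LC than in IkBaDN hearts by 0.74 ± 0.19 (adjusted p = 0.0442), but not without IkBaDN replicate 2 (adjusted p = 0.133) or TRAF2LC replicate 4 (adjusted p = 0.125). The difference from control was 0.78 ± 0.19 (adjusted p = 0.0743). Of the other 2 tested probes of Birc5, one differed by 0.38 from control and the other, not detected in control hearts, was at least 1.06-fold higher. In TRAF2LC against IkBaDN hearts they differed by -0.02 and 0.34, and none of these passed.

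The remaining tested mitotic members passed in no comparison of 2 genotypes. Cdc20 read 5.14 to 5.55 in control and 5.78 to 6.22 in TRAF2LC hearts. With the control set to the detection limit it was at least 1.35-fold higher in TRAF2LC hearts. The limma fit, on the undetected control readings themselves, gave an adjusted p of 0.229. Its other tested probe was detected on 0 control arrays and on 3 arrays of each transgenic genotype. Aurka was not detected in control hearts, and against their detection limits no fold could be given for any transgenic genotype. Mad2l1 differed from control by 0.05 in TRAF2LC and 0.01 in IkBaDN hearts and was not detected in double transgenic hearts.

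**Figure D2:**
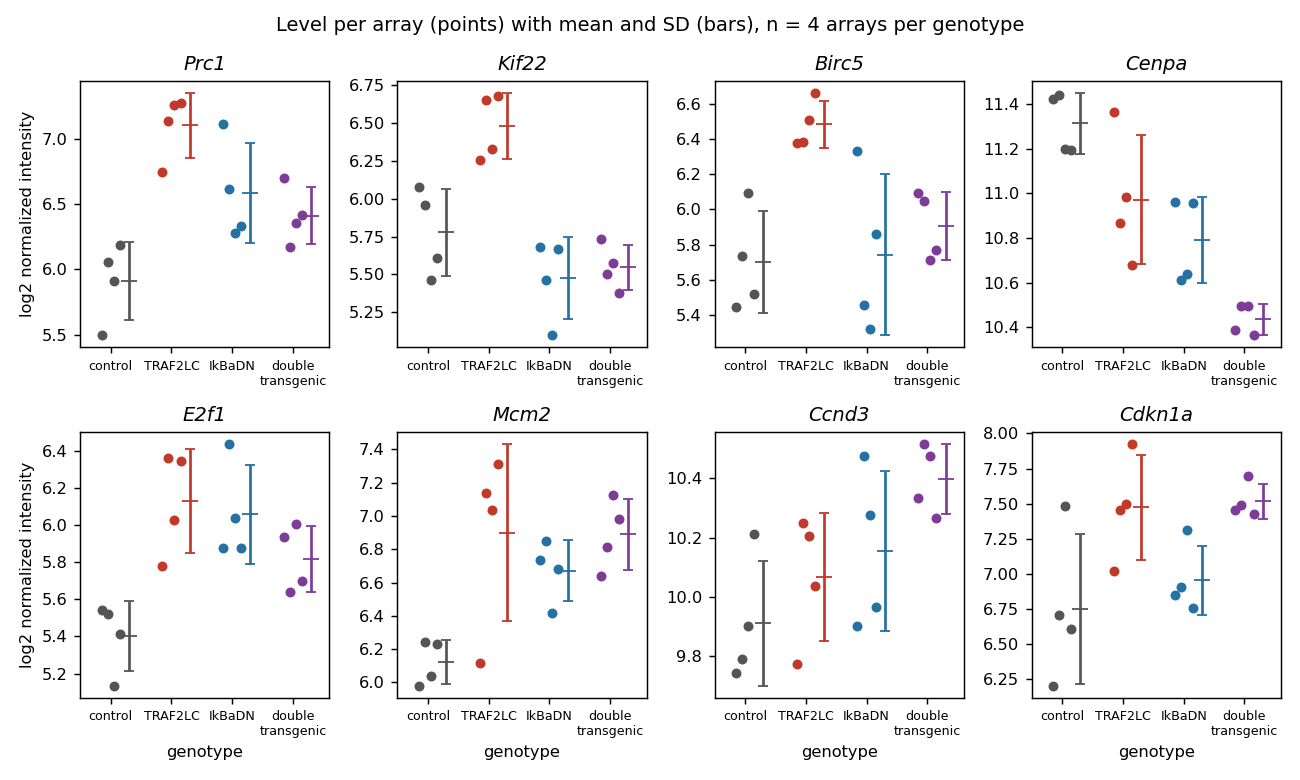
Log2 normalized intensity of 8 members on each array, with the mean and SD of 4 arrays per genotype as bars beside the points. Each panel has its own vertical scale, which does not start at 0. The TRAF2LC points of Kif22 and Birc5 lie above all those of the other genotypes, and the double transgenic points of Cenpa lie below all others.

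Among the replication genes Mcm2, a subunit of the replicative helicase, had the largest differences from control, though none passed. It read 5.98, 6.24, 6.04 and 6.23 in control and 6.12, 7.14, 7.04 and 7.31 in TRAF2LC hearts. IkBaDN hearts read 6.74, 6.85, 6.42 and 6.68, and double transgenic hearts 6.64, 6.81, 7.13 and 6.98. Apart from TRAF2LC replicate 1, which read within the control range, every transgenic array was above every control array. The log2 differences from control were 0.78 ± 0.20 (adjusted p = 0.0956), 0.55 ± 0.20 (adjusted p = 0.438) and 0.76 ± 0.20 (adjusted p = 0.1) in TRAF2LC, IkBaDN and double transgenic hearts. Without TRAF2LC replicate 1 they were 1.04 (adjusted p = 0.00139) in TRAF2LC and 0.76 (adjusted p = 0.00827) in double transgenic hearts, and with all arrays kept but weighted by quality Mcm2 also passed in both (adjusted p = 0.0399 and 0.0236).

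Mcm5, of the same helicase, read 6.54 to 6.80 in control and 6.94 to 7.41 in TRAF2LC hearts, a difference of 0.49 ± 0.16 (adjusted p = 0.241). Rrm1, the large subunit of ribonucleotide reductase, differed from control by 0.20, 0.25 and 0.34 in TRAF2LC, IkBaDN and double transgenic hearts, and Mcm6 by 0.26, 0.21 and 0.25. The differences of Mcm4 were 0.21, 0.07 and -0.11. Tyms, which makes thymidylate, differed by -0.07, -0.12 and 0.08. Tk1, which salvages thymidine, differed by -0.05 in TRAF2LC and -0.16 in IkBaDN hearts, and was not detected in double transgenic hearts. None of the 7 replication members passed in any comparison (limma, adjusted p under 0.05). At an unadjusted p under 0.05 were 2, 1 and 2 of them in TRAF2LC, IkBaDN and double transgenic hearts against control. Of the 6902 tested genes, 773, 531 and 774 were, in the same order.

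Mitotic and replication members can be set side by side on each array by the median log2 level over the control mean. For the 7 mitotic members it was 0.43, 0.68, 0.55 and 0.87 on the TRAF2LC arrays, -0.12, 0.14, -0.08 and -0.17 on the control arrays, 0.42, -0.21, -0.38 and 0.05 on the IkBaDN arrays and 0.01, 0.05, 0.01 and 0.07 on the double transgenic arrays. For the 7 replication members it was 0.01, 0.12, 0.24 and 0.55 in TRAF2LC, 0.08, 0.26, 0.10 and 0.17 in IkBaDN and 0.23, 0.04, 0.23 and 0.18 in double transgenic hearts. The mitotic median exceeded the replication median by 0.31 to 0.57 on all 4 TRAF2LC arrays. On the other 12 arrays the same difference ran from -0.48 to 0.34, the highest being IkBaDN replicate 1.

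By comparison, the median log2 difference of the mitotic members from control was 0.66 for TRAF2LC, with 6 of 7 higher, 0.04 for IkBaDN and 0.21 for the double transgenic genotype. The replication medians were 0.21, 0.21 and 0.25, and the medians over all tested genes -0.01, -0.01 and 0.00. All 7 mitotic members stood lower in double transgenic than in TRAF2LC hearts, with a median of -0.54, where the replication median was -0.01. Leaving out 1 array at a time, these medians ran from -0.57 to -0.41 and from -0.16 to 0.12, so the replication median has no settled sign. Against control the mitotic median then ran from 0.58 to 0.74 for TRAF2LC, from -0.10 to 0.19 for IkBaDN and from 0.11 to 0.31 for the double transgenic genotype, and the replication medians from 0.11 to 0.28, 0.12 to 0.25 and 0.16 to 0.29. These values rest on the tested members. Over all 22 mitotic members in the probe table, 13 of them detected on 0 arrays, the median in TRAF2LC against control was 0.09. Over all 11 replication members, 4 of them detected on 0 arrays, it was 0.21, so without the filter the mitotic median was not the higher. With undetected groups set to the detection limit, the median of the 7 tested mitotic members was 0.43. The contrast between both classes was described, not tested, because the lists were drawn with results of these data known.

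**Figure D3:**
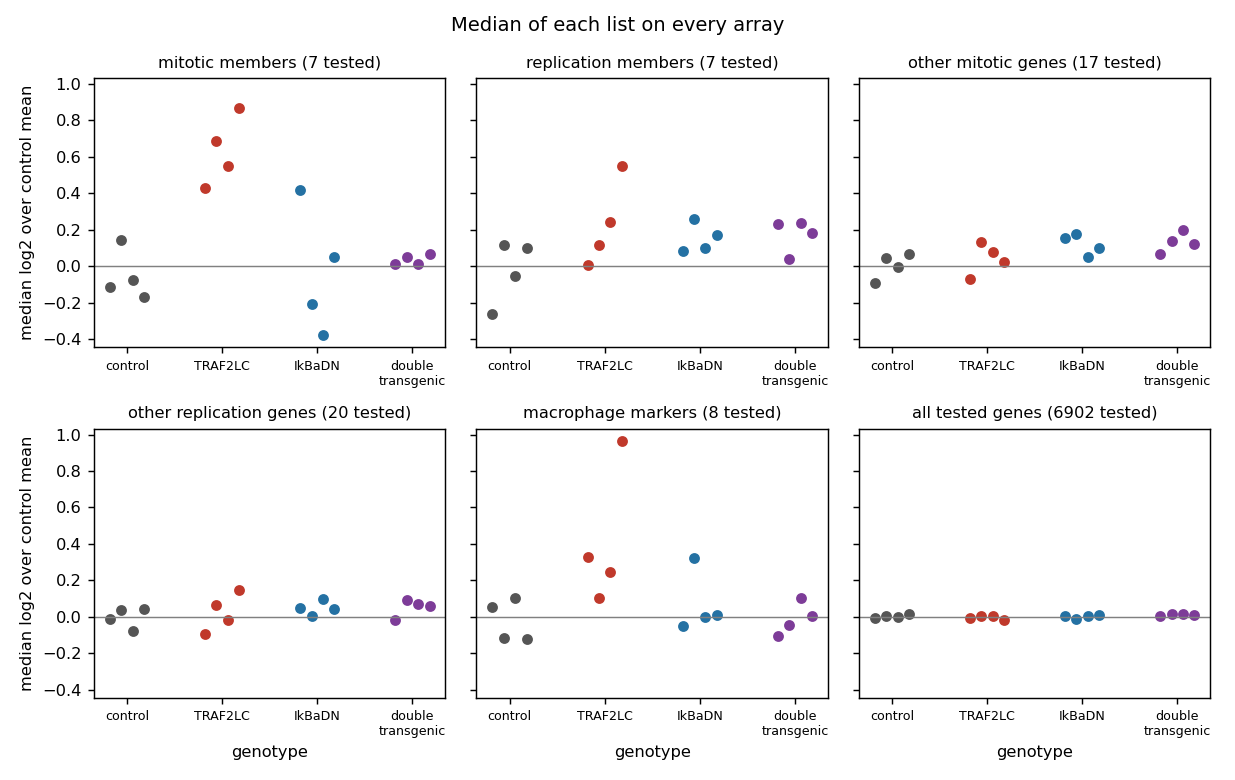
Median log2 level over the control mean on each array, for tested mitotic and replication members, other mitotic and replication genes, macrophage markers and all tested genes. Each point is 1 array, grouped by genotype. The mitotic members lie between 0.43 and 0.87 on the TRAF2LC arrays, the replication members between 0.01 and 0.55, and the other mitotic genes between -0.07 and 0.13.

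Among G1 genes, E2f1 was the one that passed. Its probe read 5.54, 5.52, 5.14 and 5.41 on the control arrays, none of them detected, and 5.78, 6.36, 6.03 and 6.35 on the TRAF2LC arrays. It read 5.88, 6.44, 6.04 and 5.88 in IkBaDN and 5.94, 5.64, 6.01 and 5.70 in double transgenic hearts. All 12 transgenic values lay above the 4 controls. With the control arrays set to their detection limits, E2f1 was at least 1.46-fold higher in TRAF2LC hearts (adjusted p = 0.0379), while the IkBaDN level was at least 1.39-fold (adjusted p = 0.104) and the double transgenic level at least 1.18-fold that of control (adjusted p = 0.341). Without TRAF2LC replicate 4 the first no longer passed (adjusted p = 0.156), and it passed in 7 of 16 fits that each left out 1 array.

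The D-type cyclins, the partners of Cdk4 and Cdk6, were all detected on 16 arrays. Ccnd2 read 10.13 to 10.53 in control and 10.68 to 10.96 in TRAF2LC hearts, without overlap, a difference of 0.47 ± 0.14 (adjusted p = 0.193). Ccnd3 stood at 9.74 to 10.21 in control and 10.27 to 10.52 in double transgenic hearts, a difference of 0.49 ± 0.15 (adjusted p = 0.183). It passed with array weights (adjusted p = 0.0476) and with the column sets of the table as a block (adjusted p = 0.0256). The dimmer tested probe of Ccnd3 read 6.02 to 6.63 in control and 6.38 to 6.83 in double transgenic hearts, with overlap. Ccnd1 differed from control by 0.22, -0.04 and 0.04 in TRAF2LC, IkBaDN and double transgenic hearts, and Cdk2, the kinase of the G1 to S transition, by -0.08, 0.07 and 0.04. The dimmer probes of Cdk2 gave 0.42 and 0.31 in IkBaDN against control where the brightest gave 0.07, and none of them passed.

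The CDK inhibitors did not pass either. Cdkn1a, the p21 gene and a target of p53, read 6.20, 6.71, 7.48 and 6.61 in control and 7.45, 7.49, 7.70 and 7.42 in double transgenic hearts, with TRAF2LC at 7.02 to 7.93 and IkBaDN at 6.76 to 7.31. Control replicate 3 reads among the transgenic values. The differences from control were 0.72 ± 0.23 (adjusted p = 0.202) in TRAF2LC and 0.77 ± 0.23 (adjusted p = 0.16) in double transgenic hearts. Without control replicate 3 they were 0.97 (adjusted p = 0.032) and 1.01 (adjusted p = 0.0247), so that array decides the call. A dimmer tested probe of Cdkn1a was detected on 0 control, 3 TRAF2LC, 0 IkBaDN and 2 double transgenic arrays. Cdkn1c, the p57 gene, read 11.20 to 11.43 in control and 10.57 to 11.09 in TRAF2LC hearts, a difference of -0.40 ± 0.12 (adjusted p = 0.199). Cdkn1b, the p27 gene, differed by -0.12, -0.12 and -0.25 in TRAF2LC, IkBaDN and double transgenic hearts, and H2az1 by -0.09, 0.12 and 0.13.

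**Figure D4:**
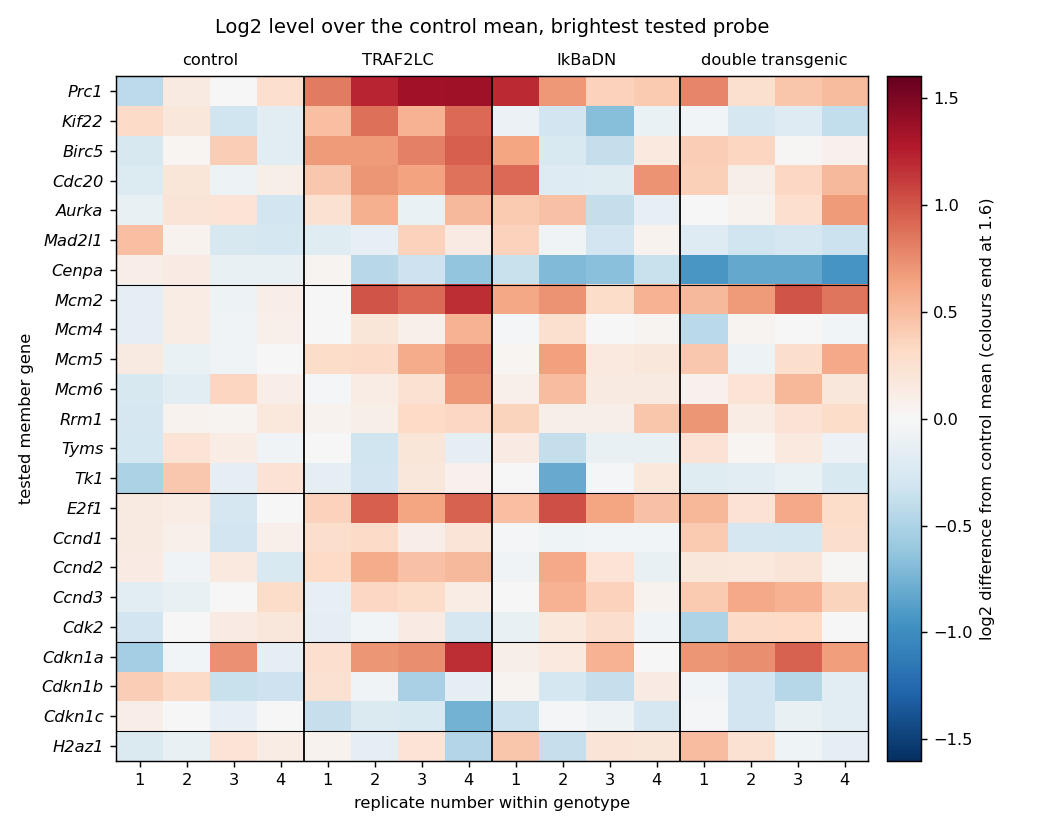
Log2 level of the 23 tested members on each of the 16 arrays, as the difference from the control mean of the same probe, with red for higher and blue for lower. Rows are genes grouped by role and columns are arrays grouped by genotype. Prc1, Kif22, Birc5 and Cdc20 are red on all 4 TRAF2LC arrays, and Cenpa is darkest blue on the double transgenic arrays.

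Counted over all tested members, 3 rose in TRAF2LC against control (Prc1, E2f1 and Kif22) and 0 fell, where 1.12% of the 6902 tested genes passed in either direction and 0.782% rose. In IkBaDN against control 0 of 23 passed, against 0.493% of all genes. At an unadjusted p under 0.05 were 4 of the 23 there, and 531 of the 6902 tested genes. Cenpa alone passed in double transgenic against control, where 0.956% of all genes did. Double transgenic against TRAF2LC hearts called Kif22 and Cenpa, both lower, against 3.10% of all genes, and TRAF2LC against IkBaDN hearts called Kif22 and Birc5, both higher, against 3.61%. Between double transgenic and IkBaDN hearts 0 of 23 passed, against 0.0145% of all genes. At an unadjusted p under 0.05 were 2 of the 23 there, and 395 of the 6902 tested genes. The comparisons with control share the same 4 control arrays, and those with TRAF2LC the same 4 TRAF2LC arrays.

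A test for any difference among the 4 genotypes called Kif22 (adjusted p = 0.00377), Cenpa (0.00645), Prc1 (0.00932) and E2f1 (0.0438), 4 of 23 members against 3.14% of all genes. Whether the effect of 1 transgene depends on the other was asked by the interaction, the difference between the effect of the TRAF2 transgene with and without the IkBa transgene. It called 0 of 23 members, against 0.0145% of all genes. At an unadjusted p under 0.05 were 6 of the 23 members and 446 of the 6902 tested genes. Prc1 came nearest, with -1.36 ± 0.27 on the log2 scale (adjusted p = 0.11), followed by E2f1 (adjusted p = 0.184) and Kif22 (-0.63 ± 0.23, adjusted p = 0.713). No size is given for E2f1, whose control level is only bounded.

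**Figure D5:**
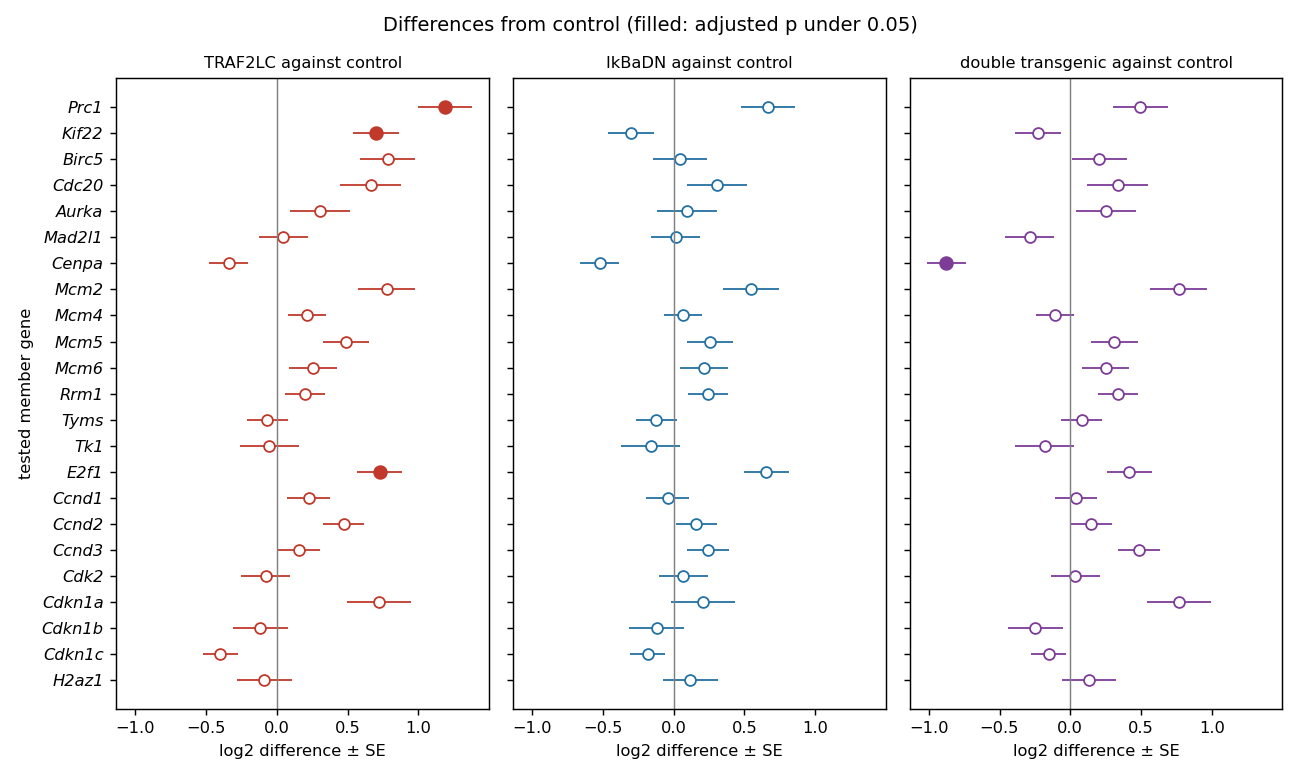
Log2 difference of each tested member from control, with its standard error, in TRAF2LC, IkBaDN and double transgenic hearts. Filled points have an adjusted p under 0.05. The points of E2f1, Cdc20 and Aurka are drawn from control values that were not detected, as are those of Tk1 and Mad2l1 from undetected double transgenic values, and their sizes are not measured. Prc1, Kif22 and E2f1 are filled in TRAF2LC, Cenpa in double transgenic hearts, and none in IkBaDN.

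Further genes of the same pathways were read from lists beside the members. Of 54 other mitotic genes with a probe, 17 were tested and 2 passed in TRAF2LC against control, where 1.12% of all tested genes did. Pbk, a mitotic kinase gene, was detected on 4 TRAF2LC arrays, 1 double transgenic array and 0 control and IkBaDN arrays, so it entered the tests through TRAF2LC. Against the detection limits it was at least 1.20-fold higher there than in control and at least 1.14-fold higher than in IkBaDN hearts. The limma fit, on the undetected readings themselves, gave an adjusted p of 0.0268 and 0.0259. Tuba1b, an alpha tubulin gene also used by resting cells, whose near-identical relatives its probe may read too, rose by 0.71 ± 0.14 (adjusted p = 0.0199) and stood 0.66 ± 0.14 higher than in IkBaDN hearts (adjusted p = 0.0129). The median of these 17 genes in TRAF2LC against control was 0.03, against 0.66 for the 7 tested members. Of 42 other replication genes 20 were tested and 0 passed in any comparison (2 at an unadjusted p under 0.05 in TRAF2LC against control), with a median of 0.02, and Chaf1a, a subunit of a histone chaperone, had the smallest p at 0.49 ± 0.18 (adjusted p = 0.3). Of 36 further G1 and RB-E2F genes 15 were tested, with 0 passing in any limma comparison and 0 to 2 at an unadjusted p under 0.05. Cdkn2c, another CDK inhibitor gene, had the smallest p in TRAF2LC against control (-0.28 ± 0.14, adjusted p = 0.495). Of 21 p53 targets 14 were tested, likewise with 0 passing and 0 to 2 at an unadjusted p under 0.05. Tnfrsf10b, a death receptor gene, had the smallest p among them in TRAF2LC against control (-0.60 ± 0.15, adjusted p = 0.0816). Over the comparisons, 395 to 1181 of the 6902 tested genes were at an unadjusted p under 0.05.

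Macrophage markers also read higher in TRAF2LC hearts. Of 11 with a probe, 8 were tested, each detected on all 16 arrays, and all 8 were higher than control, with a median log2 difference of 0.38. Adgre1 and Cd163 were detected on 0 arrays and Fcgr1 on 1. The summed normalized intensity of the 8 was 2697 to 3343 on control, 3282 to 5466 on TRAF2LC, 2887 to 3619 on IkBaDN and 2858 to 3286 on double transgenic arrays. Cx3cr1, the fractalkine receptor gene, rose by 0.85 ± 0.17 (adjusted p = 0.0255) and stood lower in double transgenic than in TRAF2LC hearts by a log2 difference of -0.69 ± 0.17 (adjusted p = 0.0368). TRAF2LC replicate 4 had the highest macrophage median, 0.96 over the control mean, against 0.10 to 0.33 on the other 3, and the highest mitotic and replication medians of its genotype. Without it, Prc1 still rose by 1.12 (adjusted p = 0.0178), the mitotic median in TRAF2LC against control was 0.58 and the replication median 0.11. What macrophages contribute to the mitotic transcripts was not tested. Of 12 lymphocyte markers with a probe, 1 was tested (Nkg7), and of 5 neutrophil markers 1 (S100a8), and neither passed in any comparison. Of the tested cardiomyocyte (9), endothelial (9), fibroblast (7) and erythroid (2) markers 0 passed against control in any transgenic genotype, where 0.493% to 1.12% of all genes did. At an unadjusted p under 0.05 were at most 1 of each list per genotype, and 531 to 774 of the 6902 tested genes. With so few markers and such low shares, 0 calls do not show that a cell type was unchanged.

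Smooth muscle and pericyte markers mostly read lower in TRAF2LC hearts. Of 9 tested, 7 were lower in TRAF2LC than in control hearts, with a median of -0.25 and 0 called by limma. There 3 of the 9 were at an unadjusted p under 0.05, as were 773 of the 6902 tested genes. All 9 were lower in TRAF2LC than in IkBaDN hearts, with a median of -0.31 and 0 called. In that comparison 4 of the 9 were at an unadjusted p under 0.05, as were 1181 of the 6902 tested genes. All 9 were higher in double transgenic than in TRAF2LC hearts (median 0.27). In the latter comparison Acta2 rose by 0.97 ± 0.19 (adjusted p = 0.00638). Their summed normalized intensity was 11002 to 15187 on TRAF2LC arrays. Their part in the mitotic differences was not tested.

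The column order of the deposited table splits the arrays into an early and a late set of 8, with 2 arrays of each genotype in both. Within them Prc1 differed by 1.23 and 1.14 in TRAF2LC against control and Kif22 by 0.45 and 0.95. Cenpa differed by -1.05 and -0.70 in double transgenic against control, and Kif22 by -0.91 and -0.95 in double transgenic against TRAF2LC hearts. The directions of these 4 differences were the same in both sets. No label says what these sets stand for.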

How the data were processed

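Total RNA of left ventricles had been isolated with a kit for fibrous tissue, labelled with biotin and hybridized to Illumina arrays, per the labels. The deposited intensity table holds 1 signal per probe and array, on a linear scale, with values below 0 on at least 1 array for 14378 of 25697 probes, as background subtraction leaves them, and beside it the authors' deposited detection p-value. A second deposited table repeats these intensity values after scaling each array by 1 factor to a common mean of 276. BeadStudio and GenomeStudio are named, per the submitters' processing notes, with no version and no step.

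Groups are the genotypes of the labels, 4 arrays each. Background correction used the nec function (limma 3.58.1, R 4.3.3; offset 16), which infers background through the detection p-values, followed by quantile normalization and log2. The detection rule of the report left 9449 probes, which entered 1 limma fit of the 4 genotypes, moderated by empirical Bayes (residual degrees of freedom 12, prior 4.64). P-values are two-sided and adjusted by Benjamini-Hochberg over all tested probes within a comparison, and an adjusted p under 0.05 is a call. A gene is its brightest tested probe. Errors are SE of the fit, which pools the spread of all genotypes. Where a group was detected on 0 arrays it was set, for the fold alone, to each array's detection limit, the lowest signal among detected probes or its own value if higher. The fold is given as at least that large. The p-values come from the fit on the readings as they are, undetected ones included. Levels of different probes were not compared, except where the intensities of a marker list were summed.

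Every tested member is described. From the other lists up to 3 called genes of smallest p are named, otherwise at most the one of smallest p. Promoters were taken for the members of smallest p in TRAF2LC against control, leaving unprinted those of E2f1 and Birc5, which hold no match; Cenpa and Mcm6 were added after values or sequences were seen. The members and lists were chosen with earlier results of these data known. On simulated data for TRAF2LC against control, with 200 of 9449 probes changed, 84% of changes of 1 and 16% of changes of 0.5 on the log2 scale were recovered. The number of arrays limits the precision, and p-values measure the spread between hearts numbered as separate samples.

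Alternatives were no background correction, median scaling, the authors' scaled values, 2 other detection filters, array weights, 3 blocks, fits of 2 genotypes alone, all probes of a gene, leaving out each array, and, chosen after seeing the data, leaving out both arrays of lowest weight.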

Additional observations from a re-analysis of the deposited data

Results flagged for a closer look

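Over the 23 tested members and 3 list medians, 104 groups of 4 arrays were examined for 1 array far from the others, a rule by which chance marks about 1 in 20 groups, and 2 were found. Mcm6 read 6.05 on IkBaDN replicate 2, the array of lowest signal, and 5.64 to 5.70 on the other 3. Ccnd1 read 10.10 on control replicate 3 and 10.48 to 10.56 on the other 3 control arrays. Neither gene passed in any comparison.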

How the results depend on the processing

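Of 8 calls of 1 member in a comparison of 2 genotypes, 4 passed under every alternative run: Prc1 in TRAF2LC against control (log2 difference 0.85 to 1.56), Cenpa in double transgenic against control (-0.92 to -0.79), and Kif22 in TRAF2LC against IkBaDN (0.66 to 1.47) and in double transgenic against TRAF2LC hearts (-1.31 to -0.61). E2f1 in TRAF2LC against control passed under 13 of 27 (highest adjusted p 0.156), Kif22 there under 9 of 27 (0.193), Cenpa in double transgenic against TRAF2LC hearts under 10 of 28 (0.121) and Birc5 in TRAF2LC against IkBaDN hearts under 8 of 27 (0.274). Detection on all 16 arrays leaves out Prc1, Kif22, E2f1 and Birc5, so it is not among their 27 alternatives. Of 4415 single values 4123 kept direction and call, 207 changed sign without being called in either setting, 16 gained a call, 69 lost one and 0 called values reversed.

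The number of members called in TRAF2LC against control (3) was 1 with no background correction, 1 with no filter on detection and 1 with the 2 genotypes fitted alone. It was 1 without both arrays of lowest weight (replicate 4 of TRAF2LC, replicate 2 of IkBaDN) and 0 with detection on all 16 arrays. That last filter leaves out the called genes Prc1, Kif22 and E2f1, detected on 15, 10 and 12 arrays. In double transgenic against control (1) it was 3 with array weights, 2 with the first and last 8 columns as a block and 2 with the genotypes alone. In double transgenic against TRAF2LC (2) it was 1 with median scaling, the authors' scaled values, no filter or detection on all 16 arrays. It was also 1 with the genotypes alone or with the runs of P numbers as a block. A P number is the number before the letter P in a sample description, and no label says what it stands for. Unlike the column sets, the runs of P numbers were not balanced over the genotypes. The run of lowest numbers held no TRAF2LC, the middle run no double transgenic and the run of highest numbers no IkBaDN heart. Genotype and run are thus partly confounded. In TRAF2LC against IkBaDN (2) the number of members called was 1 with median scaling, no filter, array weights, the P number block or the genotypes alone. It was also 1 without both arrays of lowest weight, and 0 with detection on all 16 arrays. Array weights called 1 member in the interaction (0), and detection on all 16 arrays left 1 in the test for any difference (4). Leaving out 1 array at a time gave 1 to 4, 0 to 0, 1 to 2, 1 to 2, 0 to 0, 1 to 2, 0 to 0 and 3 to 5 members, in the order TRAF2LC, IkBaDN and double transgenic against control, double transgenic against TRAF2LC and IkBaDN, TRAF2LC against IkBaDN, interaction and any difference.

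The replicate block, with the replicate number of the titles, called 1 member in TRAF2LC against IkBaDN and changed no other of these counts by over 1.5 times. No label says what the numbers share, so the hearts were not treated as paired. Deviations of arrays with the same number correlated by 0.14 to 0.41 for replicate 1 and 0.29 to 0.35 for replicate 3, whose arrays each lie in 1 column set, but by -0.29 to 0.25 for replicate 2 and -0.17 to 0.25 for replicate 4. Of 16 arrays 7 matched their own number best.

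The mitotic median in TRAF2LC against control (0.66) was 0.42 with no background correction, 1.03 with the authors' scaled values and 0.085 with no filter. In TRAF2LC against IkBaDN (0.36) it was 0.64 and 0.12 with the latter 2, in double transgenic against TRAF2LC (-0.54) -0.12 with no filter, and in double transgenic against IkBaDN (0.03) -0.21 with median scaling and -0.24 with array weights. Its interaction (-0.62) was -0.40, -0.84, -0.87 and -0.16 with no background correction, median scaling, the authors' values and no filter. The replication median in double transgenic against control (0.25) was 0.43 with the authors' values, in TRAF2LC against IkBaDN (0.11) -0.062 with median scaling, and its interaction (-0.22) -0.41 with detection on all 16 arrays. The cause of these shifts was not tested, except that the filters change which members enter. The authors' values moved the median of all genes in TRAF2LC against IkBaDN to 0.10. Signals near the detection limit bound Kif22, Birc5, Cdc20 and E2f1.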
